A study of Homo sapiens with 4 samples.

Results

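The multisynthetase complex was followed through a genome-wide CRISPR-Cas9 knockout screen by the sgRNAs against 11 of its genes, 3 that encode scaffold proteins (EEF1E1, AIMP1 and AIMP2) and 8 that encode aminoacyl-tRNA synthetases (EPRS, MARS, LARS, KARS, QARS, RARS, DARS and IARS, the older symbols of EPRS1, MARS1 and so on). Members were taken by gene symbol, which gave 44 of the 77441 sgRNAs in the count table, 4 per gene. The set was selected on the log2 fold changes of HQ461 over DMSO, with the low value of EEF1E1 already known, so the values below are a description and carry no test. The screen was made in A549, a human lung adenocarcinoma cell line, infected with the Brunello library, a pool of Cas9 vectors that knock out a single gene per cell, and the count of an sgRNA follows the abundance of cells with that knockout. After selection of infected cells with puromycin, the pool was kept for 3 weeks in 4 µM HQ461, a cytotoxic compound, or in the vehicle DMSO at 0.1%. The question of the comparison was which knockouts changed in abundance under the compound. The labels name 2 biological replicates per condition, but the table has 1 column per condition, with the way of pooling them not given. No spread between cultures could therefore be measured. The total was 16127620 counts with HQ461 and 14428845 with DMSO.

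Aminoacyl-tRNA synthetases join each amino acid to its tRNA and so supply the ribosome. In animal cells several of the cytosolic synthetases are held together in a large particle by scaffold proteins known as aminoacyl-tRNA synthetase complex-interacting multifunctional proteins, while the remaining synthetases act outside it. Most of these enzymes have no substitute in the cytosol, and cells that lose them stop making protein. The scaffolds have no charging activity of their own. AIMP2 holds many of the enzymes in place, AIMP1 binds tRNA, and EEF1E1, also called AIMP3 or p18, resembles subunits of elongation factor 1 and has also been described in the response to DNA damage.

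Cells with a knockout in the complex were already rare without the compound. The 44 sgRNAs, which are 0.0568% of the sgRNAs in the table, held 0.0133% of the DMSO counts (95% exact Clopper-Pearson interval 0.0127% to 0.0139%) and 0.00906% of the HQ461 counts (0.00860% to 0.00954%). Their median was 18 counts with DMSO and 2.5 with HQ461, against 152 and 110 for all targeting sgRNAs. By summed DMSO counts 10 of the 11 genes were among the lowest 10% of all genes, IARS lowest at the 0.204 percentile, and AIMP1 was the exception at the 67.0 percentile. No counts from before the culture were analysed, so a small share in the starting pool and a loss of cells during culture cannot be told apart. These are PCR reads, and every interval given here covers counting error only.

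For the comparison, counts were divided by median-ratio size factors, and 1 was added before the log2 fold change of HQ461 over DMSO was taken. A gene's value is the median over its sgRNAs, and a change is counted where it reached 2-fold, that is 1 on the log2 scale. An sgRNA at 0 with HQ461 has only a bound on its fold, set at a floor of 3 counts, and no fold is given where both columns are at or under 3 counts. MARS has an sgRNA at 0 in both columns, which leaves 43 sgRNAs with a value. Of these, 18 were at least 2-fold lower with HQ461 and 6 at least 2-fold higher, while 17.9% and 19.5% of all 76171 targeting sgRNAs with counts were past the same fold in those directions. These counts include sgRNAs for which no fold is given. On the lower side they are LARS 38929 and KARS 9937 (3 counts to 0) and EPRS 5713 and QARS 15626 (4 to 0). On the higher side they are MARS 11132 (0 to 3) and KARS 9938 (1 to 3). When counts were scaled by their totals, the median of all targeting sgRNAs moved by -0.68, and 26 member sgRNAs were lower and 4 higher, against 38.3% and 9.46% of all. The member sgRNA nearest inside the threshold on the lower side had a log2 fold change of -1.32, and the nearest outside it -0.90.

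EEF1E1 had the lowest value of the complex. Its sgRNAs, which the table identifies by number alone, went from 78 counts with DMSO to 55 with HQ461 for sgRNA 25090, from 43 to 2 for 25091, from 39 to 1 for 25088 and from 26 to 0 for 25089. The sgRNA with the most counts was thus level between the columns, with a ratio of 1.02 (95% interval 0.706 to 1.45), and the other 3 nearly vanished with HQ461. Fold differences were 14.9 (3.89 to 127) for 25091 and 27.1 (4.58 to 1096) for 25088, and 25089 was at least 6.01-fold lower (95% limit 4.55).

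The gene's median log2 fold change was -3.68, the value ranked 6 from the lowest of 19111 genes. Among 5116 genes with a median of 30 to 99 normalized DMSO counts per sgRNA, 4 genes (0.0782%), EEF1E1 among them, were at or below that value. EEF1E1 lay near the lower end of that range, at 34.2, and was chosen with its low value known. The same gene summed over all 4 sgRNAs went from 186 counts to 58, which is only 2.23-fold lower (1.65 to 3.04), because 94.8% of its HQ461 counts came from sgRNA 25090. Which part of the gene each sgRNA cuts was not analysed here. EEF1E1 lies on the minus strand of chromosome 6 from 8073360 to 8102559 (GRCh38, GENCODE 44), with 4 exons and a coding length of 522 bases for 174 residues. The annotation also has a read-through gene, EEF1E1-BLOC1S5, over the same interval.

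The other scaffolds did not share the pattern of EEF1E1. AIMP1 (chromosome 4, 106315544 to 106349456, plus strand) was the best represented member, and its sgRNAs went from 533 counts with DMSO to 588 with HQ461, from 146 to 54, from 116 to 91 and from 45 to 12. Only the last of these was past 2-fold, 2.60-fold lower (1.35 to 5.40), and the most abundant was 1.59-fold higher (1.41 to 1.79). The median log2 fold change of AIMP1 was -0.36, while its summed counts, 840 and 745, were 1.28-fold higher (1.16 to 1.41) after scaling, so the direction of the gene depends on how its sgRNAs are combined. Summed counts had a median log2 fold change of 0.22 over all genes, which is the level to read them against. On that scale AIMP1 was at 0.35, AIMP2 at 0.21 and KARS at 0.70.

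AIMP2 (chromosome 7, 6009255 to 6023834, plus strand), the core scaffold, had sgRNAs on both sides. Counts went from 70 with DMSO to 5 with HQ461, from 43 to 100, from 37 to 16 and from 25 to 20. The first was 9.72-fold lower (3.97 to 30.9) and the second 3.35-fold higher (2.32 to 4.91), 2 differences of opposite sign that are each larger than counting error. The median was -0.23 and the summed counts, 175 and 141, gave a ratio of 1.16 (0.923 to 1.46). Both genes overlap another coding gene on the opposite strand, TBCK for AIMP1 and EIF2AK1 for AIMP2, and those genes had log2 fold changes of -1.48 and -0.86. MARS and KARS have such overlaps too, MARS with ARHGAP9 (0.16) and DDIT3 (0.08) and KARS with TERF2IP (0.53).

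Among the synthetases, EPRS, QARS and LARS had medians past 2-fold, all lower with HQ461. EPRS (chromosome 1, 219968600 to 220046530, minus strand), which charges both glutamate and proline, had a median of -2.60. Its counts with DMSO and HQ461 were 23 and 1, 9 and 0, 9 and 12, and 4 and 0. The first was 16.0-fold lower (2.59 to 657), the first of the pair at 9 was at least 2.08-fold lower, and the second of that pair was not lower, at a ratio of 1.92 (0.743 to 5.16). Summed counts, 45 and 13, were 2.40-fold lower (1.27 to 4.85).

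QARS (chromosome 3, 49095932 to 49105130, minus strand), the glutamine enzyme, had a median of -1.87, made of unlike sgRNAs. sgRNA 15624 kept its counts, 138 with DMSO and 136 with HQ461, while 15625 went from 34 to 0, at least 7.86-fold lower. The remaining pair went from 7 to 1, 4.86-fold lower with an interval from 0.624 to 219 that includes no difference, and from 4 to 0, too few for a bound. The summed counts were level, at a ratio of 1.08 (0.858 to 1.35). As in EEF1E1, the best represented sgRNA was not lower and the other 3 were near 0 with HQ461. In QARS, however, only 15625 was lower by more than counting error, and the remaining pair was already low with DMSO.

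LARS (chromosome 5, 146110566 to 146182696, minus strand), the leucine enzyme, was similar at lower counts. Its sgRNA 38927 had 40 counts with DMSO and 39 with HQ461, and the others went from 7 to 1, from 3 to 0 and from 1 to 0. Its median was -1.25, but the summed counts had a ratio of 1.13 (0.728 to 1.74), and the sgRNA at 7 counts was 4.86-fold lower with an interval from 0.624 to 219 that includes no difference. Its other pair was at or under 3 counts in both columns.

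RARS, DARS and MARS had medians within 2-fold. RARS (chromosome 5, 168486451 to 168519301, plus strand), the arginine enzyme, had all of its sgRNAs below 0, at a median of -0.82, the last of them resting on 1 count. Its counts went from 77 to 34, from 74 to 30, from 17 to 2 and from 1 to 0, and the first 3 of these were 1.57-fold (1.04 to 2.43), 1.71-fold (1.11 to 2.71) and 5.90-fold (1.40 to 52.6) lower. The summed counts, 169 and 66, were 1.78-fold lower (1.33 to 2.40).

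DARS (chromosome 2, 135905881 to 135986100, minus strand), the aspartate enzyme, went from 22 counts with DMSO to 1 with HQ461, from 19 to 8, from 8 to 4 and from 1 to 2. Only the first was past 2-fold, 15.3-fold lower (2.47 to 630). The gene's median was -0.53, and its summed counts, 50 and 15, were 2.31-fold lower (1.28 to 4.44). MARS (chromosome 12, 57475445 to 57517569, plus strand), the methionine enzyme, had 30 counts with DMSO, of which 29 belonged to 1 sgRNA that had 1 count with HQ461, 20.1-fold lower (3.34 to 822). Its other sgRNAs had 1 and 1, 0 and 3, and 0 and 0 counts, so its median of 0.26 rests on counts at or under the floor, while its summed counts were 4.16-fold lower (1.60 to 13.7).

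KARS and IARS held the sgRNAs that were most enriched with HQ461. KARS (chromosome 16, 75627474 to 75648643, minus strand), the lysine enzyme, had the highest median of the complex, 0.88. Its sgRNA 9939 went from 5 counts to 38, which is 10.95-fold higher (4.30 to 35.6), and 9936 from 158 to 148, which is 1.35-fold higher (1.07 to 1.70) after scaling. Its remaining pair had 3 and 0 counts, and 1 and 3. The summed counts, 167 and 189, were 1.63-fold higher (1.32 to 2.02).

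IARS (chromosome 9, 92210207 to 92293854, minus strand), the isoleucine enzyme, went the other way within itself. Its sgRNA 9080 went from 2 counts to 43, 31.0-fold higher (8.07 to 264), and 9081 went from 4 to 7, at a ratio of 2.52 (0.641 to 11.7). The sgRNA 9082 instead went from 9 to 0, at least 2.08-fold lower, and 9083 from 6 to 2. The median of IARS was therefore near 0, at 0.15, while its summed counts were 3.57-fold higher (2.11 to 6.24) on the strength of sgRNA 9080 alone.

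The sgRNA with the most DMSO counts held from 40% to 96.7% of its gene's DMSO counts. When that sgRNA was left out of each gene, a choice made after the values were seen, the summed counts of the other 3 were 25.0-fold lower with HQ461 for EEF1E1 (108 counts with DMSO and 3 with HQ461, interval 8.32 to 123), 31.2-fold lower for QARS (45 and 1, 5.33 to 1261) and 7.63-fold lower for LARS (11 and 1, 1.11 to 329). They were 2.00-fold lower for RARS (1.32 to 3.08) and 1.36-fold lower for AIMP1 (1.12 to 1.66). In the opposite direction they were 6.56-fold higher for KARS (3.14 to 15.4), 6.24-fold higher for IARS (3.29 to 12.9) and 1.87-fold higher for AIMP2 (1.44 to 2.43). A single sgRNA gave most of these HQ461 counts in KARS (9939, 38 of 41) and in IARS (9080, 43 of 52). Their log2 fold changes were at the 93.7 and 97.8 percentiles of all targeting sgRNAs under 30 normalized DMSO counts. For EPRS, DARS and MARS the interval included no difference. The sgRNA left out was itself at least 2-fold lower with HQ461 in AIMP2, EPRS, DARS, MARS and IARS. It was not lower in EEF1E1, AIMP1, LARS, KARS and QARS. These folds therefore depend on which sgRNA was left out, and the same was not done over all genes.

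Sets of sgRNAs that disagree were common at these counts. An sgRNA at least 2-fold higher beside another at least 2-fold lower occurred in 4 of the 11 members (AIMP2, MARS, KARS and IARS), and in 21.8% of all genes, or 42.8% of those with a median under 30 normalized DMSO counts. In MARS and KARS a side of the pair lay at or under 3 counts in both columns, and without such sgRNAs 2 members (AIMP2 and IARS) and 21.3% of all genes had such a pair. EEF1E1, EPRS and QARS had 3 sgRNAs at least 2-fold lower, which was true of 3.74% of all genes and of 13.3% of those with under 30. In EPRS and QARS these include an sgRNA that went from 4 counts to 0 (5713 and 15626). The SD of log2 fold changes was 2.02 over the member sgRNAs, the same to 2 decimals as over all targeting sgRNAs under 30 normalized DMSO counts, while it was 1.33 over all targeting sgRNAs and 0.87 over 997 non-targeting controls.

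As a list, the median log2 fold change of the 11 genes was -0.53, against -0.022 over all genes, and 8 of them were below 0. Medians were at least 2-fold lower in 4 members (EEF1E1, EPRS, QARS and LARS) and at least 2-fold higher in 0, where 7.69% and 9.01% of all genes were so. The share depends on the DMSO level. Of the genes with a median under 30 normalized DMSO counts per sgRNA, 23.2% were lower, and of those with 30 to 99, 11.7%. Without EEF1E1 the list's median was -0.45. The summed counts of all members, 1917 with DMSO and 1461 with HQ461, came to a ratio of 1.10 (1.03 to 1.18) after scaling, with 588 of the HQ461 counts on the most abundant AIMP1 sgRNA. This ratio is opposite in sign to the median, but over all genes the same ratio of sums was 1.62, so the members lay below all genes by either measure. Taken gene by gene the gap was smaller. The median log2 fold change of summed counts was 0.11 over the members and 0.22 over all genes.

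Of the member sgRNAs, 10 of 43 were at 0 with HQ461 and above 0 with DMSO, against 1.01% of all targeting sgRNAs. By DMSO count, 4 of 8 member sgRNAs with 1 to 3 counts were at 0 with HQ461 (33.2% of all targeting sgRNAs with that count), 4 of 11 with 4 to 9 counts (22%), 1 of 7 with 10 to 29 (8.13%) and 1 of 11 with 30 to 99 (0.457%). The last are EEF1E1 sgRNA 25089 and QARS sgRNA 15625. In the opposite sense, 1 MARS sgRNA was seen with HQ461 alone, at 3 counts, as were 0.353% of all targeting sgRNAs.

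Under 30 normalized DMSO counts, 14 of 28 member sgRNAs were at least 2-fold lower with HQ461 and 5 at least 2-fold higher, where 29.8% and 32.7% of all targeting sgRNAs were. From 30 to 99, 4 of 11 were lower and 1 higher, where 22.3% and 22.1% were. The 4 that were lower belong to EEF1E1 (25091 and 25088), AIMP1 and AIMP2, and 0 of the 3 synthetase sgRNAs in that range were past 2-fold, while QARS sgRNA 15625 lies just under it at 28.3 normalized counts. With 100 or more, 0 of 4 were past 2-fold in either direction, where 14.3% and 16.5% were.

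Synthetases outside the complex are the nearest comparison, since their loss also removes a charged tRNA. The median log2 fold change of the 12 free cytosolic synthetases was -0.33, with 2 genes at least 2-fold lower and 0 higher, and 9 of them were among the lowest 10% of genes by DMSO counts. The lowest were YARS at -2.46, GARS at -1.96 and HARS at -0.88, and the highest FARSB at -0.010, NARS at 0.11 and FARSA at 0.56. At the level of sgRNAs, 16 of 48 were at least 2-fold lower and 10 higher, and 11 were at 0 with HQ461 alone. These shares stand beside 18, 6 and 10 of 43 for the complex, and no test was made of their difference. Of 34 with under 30 normalized DMSO counts, 14 were at least 2-fold lower and 7 higher, where 14 and 5 of 28 were in the complex. By DMSO count, 4 of 8 with 1 to 3 counts were at 0 with HQ461, 2 of 10 with 4 to 9, 5 of 10 with 10 to 29 and 0 of 9 with 30 to 99.

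The 16 genes of mitochondrial synthetases in the table, which serve translation inside mitochondria, had a median of -0.16, with 2 at least 2-fold lower and 2 higher. TARS2 at -1.79, LARS2 at -1.16 and MARS2 at -0.99 were lowest, and VARS2 at 2.08, EARS2 at 1.22 and SARS2 at 0.50 highest. Of their sgRNAs 1 of 63 was at 0 with HQ461 alone. Their DMSO counts were not those of the complex, with a median of 25 against 18, and no test of the difference was made. Of 39 with under 30 normalized DMSO counts, 11 were at least 2-fold lower and 10 higher, while in the complex 14 of 28 were lower and 5 higher.

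The cytosolic elongation factors bring charged tRNA to the ribosome or move it along, and EEF1E1 is named after them. Of 6 genes, EEF1A1 had 0 counts on its 4 sgRNAs in both columns. The remaining 5 had a median of -0.32, with EEF2 at -1.46, EEF1G at -0.72, EEF1B2 at -0.32, EEF1D at 0.17 and EEF1A2 at 0.31. None was near the -3.68 of EEF1E1, and EEF2 was the one past 2-fold. The summed counts of EEF2, 233 and 181, were not lower after scaling, at a log2 fold change of 0.16.

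The genes of the complex lie on 10 chromosomes with LARS and RARS sharing chromosome 5. The 20 nearest measured coding genes around each member, 10 to either side by start position, had median log2 fold changes from -0.32 around AIMP1 to 0.30 around RARS, and the median was -0.070 around EEF1E1, where the lowest of the 20 was -1.13. The value of EEF1E1 was below those of all 20 of its neighbours. That was close to given for a gene ranked 6 from the lowest of 19111, a low value known when the set was chosen.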

How the data were processed

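Counts of sgRNA reads were deposited by the authors without normalization. They were made with MAGeCK 0.5.9.2 (per the labels' processing notes, with builds hg38 and GRCh38), 1 column per condition for 2 labelled replicates. Because of that single column edgeR, DESeq2, the replicate block and leaving out a replicate, which had been planned for separate columns, were not run, and no p-value is given. The software was Python 3.11.15, with pandas 2.3.3, scipy 1.17.1 and numpy 2.4.6. Scaling used the median ratio over sgRNAs above 0 in both columns (0.833 for HQ461, 1.20 for DMSO), and 273 sgRNAs at 0 in both were left out. Intervals for a ratio are 95% Clopper-Pearson intervals of the HQ461 share of both counts, rescaled. Fold changes and intervals were tested on simulated data, as a check of the calculation only. That check cannot show the spread of real counts between cultures, and it is not evidence of accuracy at the low counts of most members. Positions came from GENCODE 44. Named are all members, and of each other list the 3 highest and 3 lowest genes. Members and lists were chosen with earlier results of these data known. Alternatives were scaling by totals, by TMM (edgeR 4.0.16) and by non-targeting controls, pseudocounts, a minimum count, summed counts and removal of the top or bottom sgRNA. Sequences of the sgRNAs were not used here.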

Additional observations from a re-analysis of the deposited data

How the results depend on the processing

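No paired analysis was possible because both labelled replicates of a condition share a single column. Scaling by non-targeting controls, TMM and a pseudocount of 0.5 moved EEF1E1 and the lists little. In that order EEF1E1 was at -3.65, -3.71 and -3.96, and the median over member genes at -0.50, -0.56 and -0.56. The log2 fold change of EEF1E1 kept its sign and stayed past 2-fold under all alternatives, at -4.22 with total counts, -2.44 with a pseudocount of 5, -1.14 with summed counts and -3.24 with counts of 0 set to 3, a setting chosen after the data were examined. The median over all genes was -0.70 with total counts, 0.22 with summed counts, -0.32 without the most enriched sgRNA of each gene and 0.27 without the most depleted, and lists are read against it. The median over member genes was -1.14 with total counts, -0.38 with the pseudocount of 5, -0.36 with a minimum of 30 normalized DMSO counts (7 genes and 15 sgRNAs left), 0.11 with summed counts, -0.90 without the most enriched sgRNA, -0.40 without the most depleted and -0.37 with 0 set to 3. In the same order of settings, free cytosolic synthetases had -0.90, -0.23, 0.17, -0.34, -0.88, 0.065 and -0.073. Mitochondrial synthetases had -0.77 with total counts, -0.57 with the minimum, -0.51 without the most enriched sgRNA and 0.11 without the most depleted. Elongation factors had -0.99, 0.17, -0.76 and 0.12 under those 4 settings, 0.34 with summed counts and 0.17 with 0 set to 3. The median over member sgRNAs was -1.31 with total counts, -0.57 with the pseudocount of 5, -0.64 with the minimum and 0.023 with 0 set to 3, which by construction lifts sgRNAs with under 3 DMSO counts. The minimum left 4 sgRNAs lower and 1 higher, the pseudocount of 5 left 12 and 3, and 0 set to 3 left 15 and 8. LARS turned to 0.48 with the minimum, 0.17 with summed counts and 0.51 with 0 set to 3, and QARS to 0.50 with the minimum and 0.11 with summed counts. Values inside 2-fold were also -0.77 for QARS and -0.40 for LARS with the pseudocount of 5, -0.87 for LARS without the most depleted sgRNA and -0.47 for EPRS with 0 set to 3, and EPRS has no sgRNA left under the minimum. Other members moved past 2-fold. AIMP1 (-1.04), RARS (-1.37) and DARS (-1.14) did so with total counts, and RARS (-1.09) with a pseudocount of 0.5. With summed counts MARS was -1.89, DARS -1.17 and IARS 1.78. MARS was -1.63 without the most enriched sgRNA. Without the most depleted, MARS was 1.23, KARS 1.33 and IARS 1.12. KARS was also 1.03 with a pseudocount of 0.5 and 1.32 with 0 set to 3. With 0 set to 3, sgRNAs of QARS (15626) and EPRS (5713) turned to 0.11, and those of KARS (9937) and LARS (38929) to 0.53, and LARS 38926 and RARS 15841 went from -0.87 to 2.11. Low DMSO counts limit precision, as 28 of 43 member sgRNAs had under 30 normalized counts.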
